A study of Mus musculus with 8 samples.

Results

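The genes described here are 9 factors of nonsense-mediated mRNA decay (NMD): Upf1, Upf2, Upf3a, Upf3b, Smg1, Smg5, Smg6, Smg8 and Smg9. They were taken by symbol from the deposited expression table, where each has 1 row on a reference chromosome among 52778 listed features. Smg8 has a further row on an alternative sequence that is listed at 0 in every library. All 9 passed the filter on low values, and the comparison below asks whether their transcripts differ between control hearts and hearts homozygous for an Atf4 deletion allele. The tissue was the ventricular heart of the mouse at E11.5. The 4 controls were compared with 4 embryonic samples that carry 2 copies of an Atf4 allele in which CRISPR/Cas9 removed 7 base pairs of exon 3, which shifts the reading frame. The background of both groups is given as C57BL/6, no drug was applied to either, and all 8 libraries carry the batch label 1. The genotype field reads wild type for the mutants as well, so the groups rest on the sample titles and the treatment field, which give the same grouping. The labels do not say whether an embryo was used alone or pooled, nor its litter. The p-values therefore measure the spread between these samples. Expression is in TPM, a transcript abundance relative to length and to the library total. TPM keeps no depth, so errors are the spread over the 4 libraries of each group.

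NMD removes mRNAs on which the ribosome stops too early. UPF1, an RNA helicase, is recruited by the terminating ribosome, and when an exon junction complex still sits downstream of the stop codon, UPF2 and UPF3 bridge that complex to UPF1. The kinase SMG1, held in check by SMG8 and SMG9, then phosphorylates UPF1, which brings in SMG6, an endonuclease, and SMG5, which calls on deadenylation and decapping. Several of these factors are encoded by mRNAs that are themselves known NMD substrates, and ATF4 mRNA, with its upstream reading frames, is described as one.

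The exon of Atf4 that the labels give for the lesion was looked up in the annotation (GENCODE M21, GRCm38). The principal Atf4 transcript has 3 exons, so exon 3 is the last one, at chr15:80256634-80257541 on the plus strand, and it holds 827 of the 1050 coding bases (78.8%, stop codon included). The 60 coding bases around the last exon junction are printed here because every stop codon in exon 3 lies behind that junction. Lower case marks the end of exon 2 and capitals mark the start of exon 3.
Atf4, last junction: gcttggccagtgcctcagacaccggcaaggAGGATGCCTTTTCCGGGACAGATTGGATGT
Exon 3 of the labels was taken to be exon 3 of this transcript, 1 of 3 annotated for Atf4. The deletion was taken to lie in its coding part. The exact position of the 7 missing bases is not in the sources used here. A deletion of 7 bases was therefore placed at each of the 818 positions within the coding part of exon 3, and the first stop codon of the shifted frame was read. For 777 positions that stop came before the normal one, and for the other 41 it came after it. Counted on the unedited transcript, the nearest of these stops began 8 bases and the farthest 882 bases behind the junction, inside the 908 bases of exon 3, so in this transcript no exon junction lies behind any of them.

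Among the members, 3 of 9 have an annotated transcript of the NMD class: Smg1, Smg5 and Smg6. The share is 33.3%, against 28.6% of 12178 tested protein-coding genes, so it is near that of genes at large. The last 30 bases of the reading frame of each such transcript are shown beside those of the principal transcript, with the stop codon in capitals, because the place of the stop relative to the junctions defines the class.
Smg6, NMD class: gatgatggagacattccctgcagtggcTGA
Smg6, principal: gccttccttacgtgggcccaggtgggcTGA
Smg5, NMD class: gtggaagccatgtattgctacttgcgcTGA
Smg5, principal: ttctacaggcagtggaaggagattggtTGA
Smg1, NMD class: atgacagagaccgaagactggctactgTAA
Smg1, principal: ctgtatgaaggttggacagcttgggtgTGA
Upf1, principal: ggcggggtcaccgggctgtcccagtacTAG
In the NMD-class transcript of Smg6 the stop codon (chr11:74990094-74990096) is followed by 9 exon junctions, the last of them 1379 bases on, and in that of Smg5 by 3, the last 434 bases on. The NMD-class transcript of Smg1 stops at chr7:118210780-118210782 with 59 junctions still to come. All 3 reading frames are annotated without a start codon, and only the Smg6 transcript has the best support level, 1, while the others have level 5. The principal transcripts of 8 members have no junction behind the stop. That of Upf1 (stop codon at chr8:70332623-70332625, minus strand) has 1 junction, which begins 3 bases behind the stop codon. The table gives 1 value per gene, so NMD-class and principal transcripts are not told apart in what follows.

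The series as a whole showed few differences. In a limma fit over the 15545 genes that reached 1 TPM in at least 4 libraries, 6 genes (0.0386%) had an adjusted p below 0.05, and 949 (6.10%) had an unadjusted p below 0.05. The count of 6 fell to 0 without the filter, and it lay between 0 and 3 when any 1 library was left out: 1 without control replicate 1, 0 without control replicate 2, 3 or 4, 2 without mutant replicate 2 and 3 without mutant replicate 1, 3 or 4. The labelled tissue was checked with 10 cardiomyocyte markers, which summed to between 38864 and 40426 TPM in the controls and between 37517 and 40014 TPM in the mutants. The extraction protocol in the labels speaks of cultured cortical neurons: of 10 neuron markers, 9 stayed below 1 TPM in every library, Neurod2 and Neurod6 were listed at 0 throughout, and Tubb3 averaged 8.84 TPM. Of 8 erythroid markers, 7 were lower in the mutants, with sums of 3570 to 6088 TPM in the controls and 3259 to 4584 TPM in the mutants. Of 8 macrophage markers, 6 of the 7 tested were lower, with sums of 13.4 to 24.7 TPM and 8.83 to 13.9 TPM. No macrophage marker was at 0 in any library, and none of either list passed the adjusted threshold. At an unadjusted p below 0.05 there were 2 of 8 erythroid and 4 of 7 macrophage markers, all lower in the mutants, beside 6.10% of all tested genes. The groups did not overlap for 3 macrophage markers, C1qb, Cx3cr1 and Mrc1, and for 0 erythroid markers, beside 3.68%. For the atrial, endothelial, epicardial and cushion marker lists the summed levels of the 2 groups overlapped, and none of their genes passed the adjusted threshold. At an unadjusted p below 0.05 (limma) there was 1 of 5 tested atrial markers, Myl7, higher in the mutants (p of 0.0186). There was also 1 of 6 epicardial markers, Tbx18, lower (0.0452), and 1 of 10 cardiomyocyte markers, Nkx2-5, higher (0.0163). The endothelial and cushion lists had 0. In bulk RNA, fewer cells of a type and less RNA per cell cannot be told apart. The part of these cells in the values below was not tested.

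The targeted gene was examined first. A loss of 7 bases does not stop reads of the gene from being counted, so its level does not check the labels. Atf4 held 105, 121, 115 and 105 TPM across the controls and 166, 164, 185 and 148 TPM across the mutants, so every mutant library lay above every control. On the log2(TPM + 1) scale used for all fits, the fold change was 0.57 (log2, standard error 0.071), with a 95% interval from 0.41 to 0.72 (limma, two-sided adjusted p of 0.0430). That call was lost without a filter on low values (adjusted p of 0.354) and when any 1 library other than mutant replicate 4 was left out (adjusted p from 0.101 to 0.184).

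None of the 9 NMD factors differed between the genotypes beyond the spread of the replicates. The adjusted p was below 0.05 for 0 of 9 (background 0.0386%), and the unadjusted p for 0 of 9 (background 6.10%). The 4 mutant values overlapped the 4 control values in all 9, where 3.68% of tested genes did not overlap. For 9 genes, counts of 0 are near these shares, so they do not set the factors apart from genes at large. Of the 9, 4 had a positive and 5 a negative log2 fold change, from -0.082 for Upf2 to 0.053 for Upf3b. The median was -0.0083, beside -0.0033 over all tested genes. The median size regardless of sign was 0.041, beside 0.055 over all tested genes, which were not matched to the factors in level or spread. Summed over the 9 genes, the controls held 222 to 247 TPM and the mutants 231 to 247 TPM. The 95% intervals limit what these libraries could have missed: for Smg5, the narrowest, the interval ran from -7.07% to 6.38%, and for Upf3b, the widest, from -16.0% to 28.1%, both on the scale of TPM + 1.

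**Figure D1:**
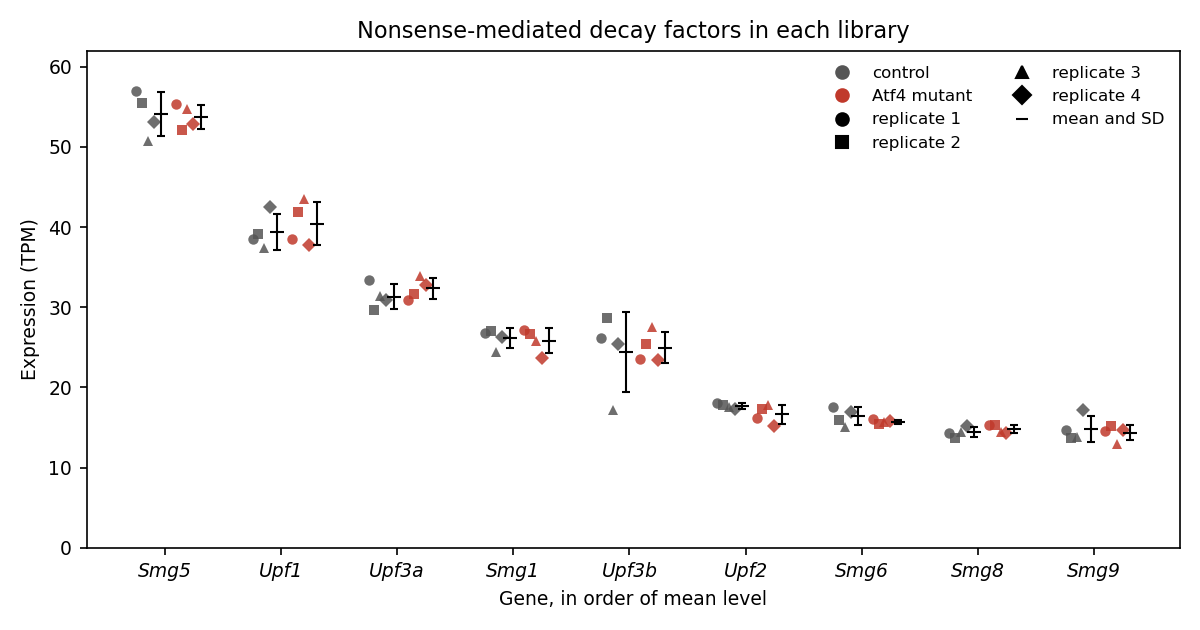
Expression of the 9 NMD factors in TPM (vertical axis) for each gene in order of mean level (horizontal axis). Grey symbols are the 4 control libraries, red symbols the 4 Atf4 mutant libraries, the symbol shape is the replicate number, and bars show mean and SD. Mutant and control values overlap for every gene, and the low triangle of Upf3b is control replicate 3 at 17.2 TPM.

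Upf1, the helicase at the centre of the pathway, held 38.5, 39.1, 37.4 and 42.6 TPM across the controls and 38.6, 41.9, 43.5 and 37.8 TPM across the mutants. The highest value was mutant replicate 3 and the lowest control replicate 3, with the other libraries of both groups interleaved between them. The means were 39.4 ± 2.23 and 40.4 ± 2.70 TPM (SD, n = 4 each), giving a log2 fold change of 0.036 (standard error 0.058, limma adjusted p of 0.960). The gene (chr8:70331493-70353423, minus strand) overlaps Cers1 and Gdf1 on the other strand, which averaged 1.69 and 2.11 TPM.

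Upf2, the adaptor between UPF1 and UPF3, had the largest difference of the 9 in size. Its controls lay close together at 18.1, 17.8, 17.5 and 17.3 TPM, and its mutants at 16.2, 17.3, 17.9 and 15.2 TPM. Mutant replicates 1 and 4 were below all controls, while replicates 2 and 3 lay within the control range. The mean went from 17.7 ± 0.348 to 16.7 ± 1.19 TPM (SD, n = 4 each), with a log2 fold change of -0.082, a standard error of 0.057 and a 95% interval from -0.21 to 0.046 (limma, unadjusted p of 0.182, adjusted p of 0.892). By two-sided exact permutation of the libraries the p was 0.20, where 0.0286 is the smallest that 4 against 4 allow.

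The paralogues Upf3a and Upf3b encode the proteins that touch the exon junction complex. UPF3B is the more active of the pair, and UPF3A is known to be stabilised at the protein level when UPF3B is missing. Upf3a held 33.4, 29.7, 31.4 and 30.9 TPM across the controls and 31.0, 31.7, 33.9 and 32.8 TPM across the mutants, a log2 fold change of 0.044 (standard error 0.048, limma adjusted p of 0.935). Upf3b held 26.1, 28.7, 17.2 and 25.5 TPM across the controls and 23.5, 25.4, 27.5 and 23.5 TPM across the mutants.

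Control replicate 3 thus stood well below the other 7 libraries for Upf3b, and the sign of the difference rested on it. It was 0.053 (log2, standard error 0.14) over all libraries and -0.098 without control replicate 3 (limma adjusted p of 0.978 and 0.971). In that library Upf3b was 0.60 lower on the log2 scale than the mean of the other controls. The median of all 578 tested genes of the X chromosome was 0.019 lower there, and 16 of those genes were lower than Upf3b by this measure. Of 9498 tested genes with a mean log2 level of at least that of 10 TPM, 37, Upf3b included, were as low or lower. Of the 7 tested neighbours of Upf3b on the chromosome, 2 also had their lowest control value in that library, beside 35.3% of all tested genes. Nkap (14.3 TPM there, 13.3 to 14.9 in the other controls) and Rpl39 (645 TPM there, 599 to 641 elsewhere among controls) were not low in that library. The 2 that were, both weakly expressed, were Sowahd (0.736 TPM beside 0.903 to 1.31) and Snora69 (0.694 TPM beside 1.70 to 3.87). The Upf3a to Upf3b ratio of TPM was 1.82 in control replicate 3, 1.03 to 1.28 in the other controls and 1.23 to 1.40 in the mutants. With that library in, Upf3b also had the highest coefficient of variation of the 9 genes over the 8 libraries, 14.2%, and a residual SD higher than that of 94.8% of the 500 tested genes nearest to it in level.

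Smg1 encodes the kinase that phosphorylates UPF1. Its transcript held 26.8, 27.1, 24.4 and 26.3 TPM across the controls and 27.2, 26.7, 25.8 and 23.7 TPM across the mutants, so both groups spanned about the same range and each had 1 low library. The log2 fold change was -0.019 (standard error 0.055, limma adjusted p of 0.982), and 0.021 without mutant replicate 4. Its regulators Smg8 and Smg9, whose products bind the kinase as a pair, were the 2 lowest of the 9 genes. Smg8 held 14.3, 13.7, 14.5 and 15.2 TPM across the controls and 15.3, 15.3, 14.4 and 14.3 TPM across the mutants, at a log2 fold change of 0.036 (standard error 0.052). Smg9 held 14.7, 13.7, 13.8 and 17.2 TPM across the controls and 14.5, 15.2, 13.0 and 14.7 TPM across the mutants, at -0.041 (standard error 0.081). Control replicate 4 was the high library for Smg9, and without it the log2 fold change was 0.029, as it was 0.0038 without mutant replicate 3. The Smg8 to Smg9 ratio stayed between 0.881 and 1.11 over the 8 libraries, so the partners had nearly the same level per length.

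Of the factors that read phosphorylated UPF1, Smg5 was the most abundant of the 9 genes and Smg6 among the least. Smg5 held 57.0, 55.5, 50.8 and 53.1 TPM across the controls and 55.3, 52.1, 54.7 and 52.8 TPM across the mutants, with a log2 fold change of -0.0083 (standard error 0.043, limma adjusted p of 0.992). That near-zero value turned positive without control replicate 1 (0.017), control replicate 2 (0.0041) or mutant replicate 2 (0.0061). Smg6 held 17.6, 16.0, 15.1 and 16.95 TPM across the controls and 16.1, 15.4, 15.7 and 15.8 TPM across the mutants, with a log2 fold change of -0.054 (standard error 0.056, limma adjusted p of 0.930). The mutants were tighter for Smg6, with an SD of 0.270 TPM against 1.11 TPM in the controls, and lay inside the control range. Smg6 overlaps Srr and Hic1 on the other strand, which averaged 15.2 and 13.97 TPM, close to its own level, and the strand setting of the counting is not given in the sources used here. Per length, Smg5 stood at 3.13 to 3.49 times Smg6 across the 8 libraries.

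**Figure D2:**
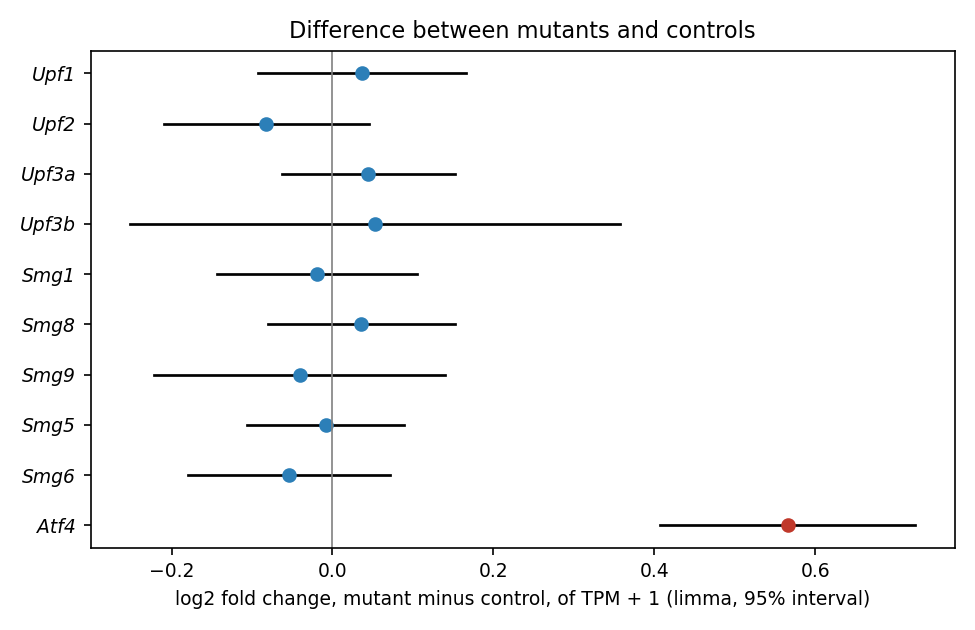
Log2 fold change of TPM + 1, mutants minus controls (horizontal axis), for the 9 NMD factors (blue) and Atf4 (red), with lines for the 95% interval of the limma fit. The intervals of all 9 factors cross 0, and that of Atf4 runs from 0.41 to 0.72.

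By mean level over the 8 libraries the order was Smg5 (53.9 TPM), Upf1 (39.9), Upf3a (31.8), Smg1 (25.99), Upf3b (24.7), Upf2 (17.2), Smg6 (16.1), Smg8 (14.62) and Smg9 (14.61). The ranges of Smg5, Upf1, Upf3a and Smg1 over the libraries did not touch each other. From Smg1 on, neighbours overlapped: Smg1 exceeded Upf3b in 6 of 8 libraries, Upf3b exceeded Upf2 in 7, Upf2 exceeded Smg6 in 7, and Smg8 exceeded Smg9 in 5, while Smg6 exceeded Smg8 in all 8 by a mean of 1.45 TPM. All 9 sat in the middle to upper part of the tested genes, from the 48.2 percentile of mean level for Smg9 to the 82.4 percentile for Smg5.

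Upf3b and Smg9 varied most between libraries. The coefficient of variation over the 8 libraries was 3.79% to 5.92% for the other 7, 8.74% for Smg9 and 14.2% for Upf3b. The residual SD on the log2 scale ran from 0.053 for Smg8 to 0.12 for Smg9 and 0.23 for Upf3b, beside a median of 0.10 over all tested genes. Set among the 500 tested genes nearest in level, the residual SD stood at the 7.4 percentile for Smg8, between 20.4 and 39.8 for Smg6, Upf2, Smg5, Upf3a and Smg1, at 63.6 for Upf1, at 65.6 for Smg9 and at 94.8 for Upf3b.

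Several factors were low in the same libraries. Control replicate 3 was the lowest control for 5 of the 9 genes and mutant replicate 4 the lowest mutant for 5 of 9. The median deviation of the 9 from their group means was -0.088 in control replicate 3 and -0.048 in mutant replicate 4 on the log2 scale. The same libraries were also low for genes at large, with a median deviation of -0.021 and -0.023, and were the lowest of their group for 35.3% and 35.0% of all tested genes. The part of this general shift in the factor levels was not tested.

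**Figure D3:**
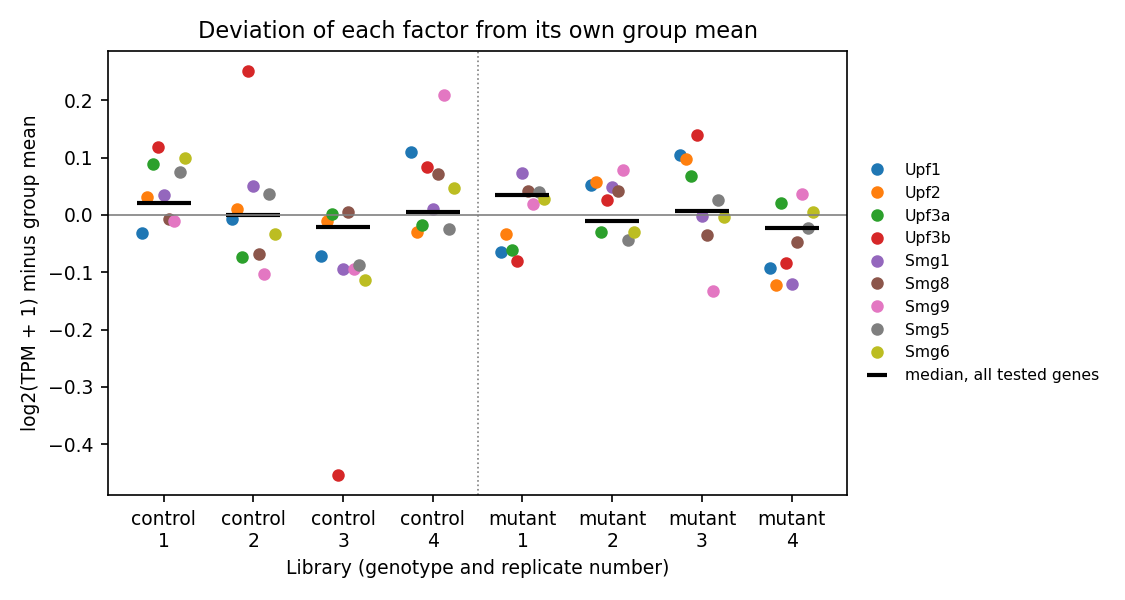
Each point is 1 NMD factor in 1 library (horizontal axis, genotype and replicate number), as log2(TPM + 1) minus the mean of its group (vertical axis), and black bars give the median over all tested genes. Control replicate 3 and mutant replicate 4 are the lowest of their group for 5 of 9 factors each, and for 35.3% and 35.0% of all tested genes. Upf3b in control replicate 3 lies far below the rest.

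The mean log2(TPM + 1) of the 9 factors was lowest in control replicate 3 (4.54), next lowest in mutant replicate 4 (4.59) and highest in control replicate 4 (4.696). Upf3b, 0.60 lower in control replicate 3 than in the other controls, is part of this mean. Among 11618 other genes with a mean of at least 5 TPM, those whose log2 values followed this mean most closely over the 8 libraries were Otud4, Mfsd14b, Tmem263, Efr3b and Surf6, with Pearson r from 0.974 to 0.957. These are the highest of many correlations over the same 8 libraries, which share their scaling, and are given as a description. How far they rest on control replicate 3 was not tested.

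The other genes of the pathway were compared in the same fit. Over all tested genes, 7490 log2 fold changes were positive and 8055 negative. The adjusted threshold was passed by 0.0386% of them and the unadjusted one by 6.10%. Among 11 further NMD factors, 8 had positive and 3 negative log2 fold changes, with a median of 0.034 and none past the adjusted or unadjusted threshold. Ruvbl1, an ATPase that acts with SMG1, had the smallest unadjusted p at 0.0904 (log2 fold change 0.083), followed by the cap-binding genes Ncbp2 (0.069) and Ncbp1 (0.038). Among 10 genes of the exon junction complex and its periphery, 8 were positive and 2 negative, with a median of 0.033, and again none passed either threshold. For lists of 11 and 10 genes, counts of 0 are near the shares of all tested genes. The lean to positive signs in these lists was not tested. Magohb, one of a pair of genes for the same core subunit, was at 0.11, the peripheral factor Acin1 at 0.088 and the core helicase Eif4a3 at 0.066.

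None of the translation termination genes passed either threshold. Of 6 genes, 5 were positive and 1 negative, with a median log2 fold change of 0.066, beside 7490 positive and 8055 negative among all tested genes. Gspt1, the GTPase of the release complex, held 58.2, 55.5, 55.3 and 57.4 TPM across the controls and 61.6, 56.8, 60.3 and 61.2 TPM across the mutants, so only mutant replicate 2 lay within the control range. Its log2 fold change was 0.083 with a 95% interval from -0.0023 to 0.17 (limma, unadjusted p of 0.0554, adjusted p of 0.821). The poly(A)-binding genes Pabpc4 and Pabpc1 both had log2 fold changes of 0.067 (limma, unadjusted p of 0.0801 and 0.132).

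The 27 decay enzymes downstream, which remove the cap and the tail and degrade the RNA body, split evenly at 13 positive and 14 negative, with a median of -0.0014. Pan3, a subunit of a deadenylase, was the only one of the 27 with an unadjusted p below 0.05, beside 6.10% of all tested genes. It held 7.995, 8.88, 6.504 and 8.26 TPM across the controls and 8.47, 10.2, 10.2 and 11.9 TPM across the mutants, with mutant replicate 1 inside the control range. Its log2 fold change of 0.33 (standard error 0.11) had an unadjusted p of 0.0160 and did not pass after adjustment over all genes (limma, adjusted p of 0.780). The exosome subunit Exosc5 was at -0.14 and the decapping activator Lsm1 at 0.10 (limma adjusted p of 0.850 and 0.911).

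Transcripts generally described as NMD substrates were listed as a description. They do not measure decay here, because 1 value per gene does not separate isoforms and the list holds the edited gene, Atf4. Of 21 listed, 20 were tested and Chac1 was too low. Of these, 10 had positive and 10 negative log2 fold changes, with a median of -0.0052. Atf4 itself was the 1 gene past the adjusted threshold, and 3 of the 20, Atf4, Atf3 and Srsf3, had groups that did not overlap, beside 3.68% of all tested genes. Srsf3, a splicing factor gene, differed little in size (239.6 ± 1.304 and 245 ± 2.29 TPM, SD, n = 4 each, log2 fold change 0.033, limma adjusted p of 0.903). For Atf3, a stress-induced factor of the same family, the controls held 16.1, 16.5, 16.3 and 16.9 TPM and the mutants 14.3, 11.02, 13.6 and 14.6 TPM. Its log2 fold change of -0.29 (standard error 0.081, limma unadjusted p of 0.00611) did not pass after adjustment over all genes (adjusted p of 0.742). The splicing factor genes Srsf6 and Tra2b, which carry NMD-linked exons, were at -0.072 (unadjusted p of 0.0497) and 0.092. The snoRNA host gene Gas5, a much used NMD readout, was at 241 ± 31.8 TPM across the controls and 220 ± 57.3 TPM across the mutants (SD, n = 4 each, log2 fold change -0.17, limma adjusted p of 0.942), and the host gene Zfas1 at 46.6 ± 3.92 and 45.3 ± 2.18 TPM. The lowest Gas5 value, 135 TPM, was mutant replicate 1, against 242 to 259.6 TPM in the other mutants, and without that library the log2 fold change was 0.051. Control replicate 1 was the low control for Gas5, at 195 TPM beside 253 to 265 TPM. For Zfas1 the log2 fold change was -0.038, and 0.0057 without control replicate 3.

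**Figure D4:**
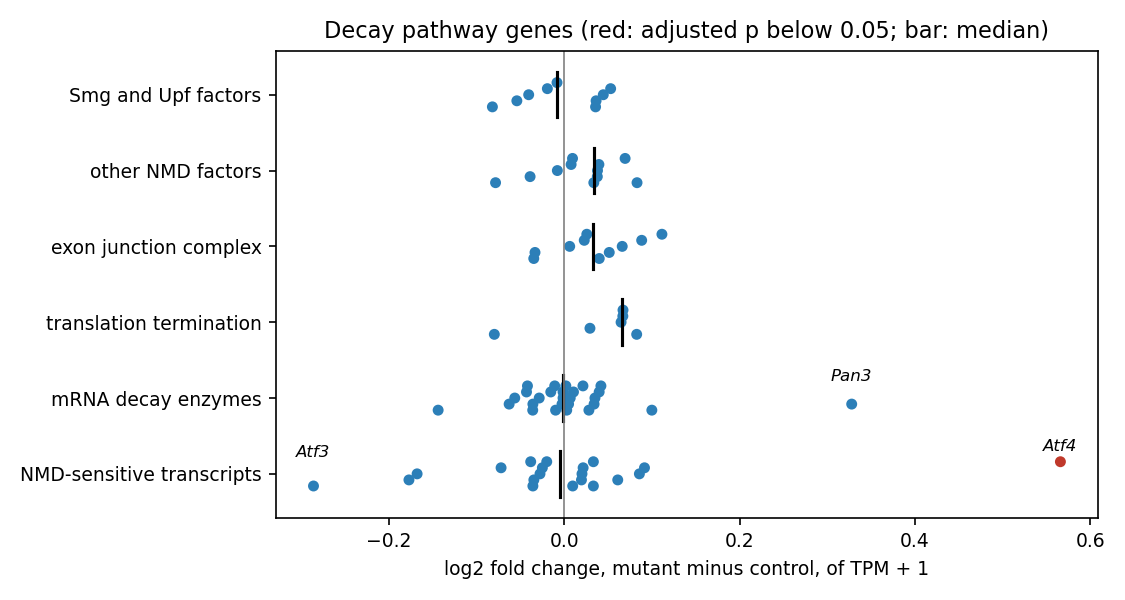
Log2 fold change of TPM + 1, mutants minus controls (horizontal axis), for the tested genes of 6 lists (vertical axis). Each point is a gene, the black bar is the list median, and red marks an adjusted p below 0.05. Atf4 at 0.57 is the only red point, with Pan3 at 0.33 and Atf3 at -0.29 as the next in size.

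The promoters of all 9 members, from 250 bases before to 50 bases after the start that RefSeq gives (GRCm38.p6), were searched on both strands. The expression table places the start elsewhere for some genes: the windows of Smg1, Upf3a and Smg9 lie wholly inside the gene as listed there. The composite C/EBP-ATF motif TGATGNAA, which ATF4 is known to bind, was found in 0 of the 9, beside 3.97% of 32851 promoters of the same length. The full cAMP response element TGACGTCA was found in 0 of the 9 (1.79% of all promoters), and its core TGACG, contained in it, in Upf3b alone (20.8% of all promoters). These matches say only which letters stand in these windows. Their GC content ran from 53.3% in Smg8 to 72.3% in Upf1, above the median of 52.7% over all promoters.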

How the data were processed

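RNA-seq of 8 libraries, 4 per genotype, was used. The values are TPM as deposited by the authors, 1 column per library. The columns sum to between 923473 TPM (mutant replicate 2) and 949762 TPM (mutant replicate 1) and were not rescaled in the main fit. The submitters' processing notes name GRCm38 (mm10), FastQC, Trim Galore 0.6.7, HISAT2 2.2.1, StringTie 2.2.1, featureCounts and DESeq2 without roles. The annotation, the strand setting and the handling of reads that map to several places are not given in the sources used here. The labels disagree on extraction (TRIzol or a column kit) and on enrichment (poly(A) or ribosomal RNA depletion). TPM keeps no depth, so no counting interval is given.

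The fit used log2(TPM + 1) of the 15545 genes that reached 1 TPM in 4 or more libraries, in limma 3.58.1 (R 4.3.3) with a variance trend and Benjamini-Hochberg adjustment at 0.05. Log2 fold changes on this scale understate the change of low genes. Single members were also compared by exact permutation over the 70 assignments. Python 3.11.15, pandas 2.3.3, numpy 2.4.6 and matplotlib 3.10.9 were used. The fit was run on simulated data, and the 95% intervals show the precision. Sequences come from GENCODE M21 transcripts and RefSeq promoters. Promoters matched all 9 members.

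The members and lists were chosen with earlier results of these data known. Named are the 9 members, Atf4, in each related list the genes past the threshold and up to 3 more with the smallest p, and the 5 genes most like the members' mean. Gas5, Zfas1, Srsf3, Chac1, Nkap, Rpl39, Sowahd, Snora69, single markers and overlapping genes were named after their values were seen. A further gene of the pathway is not reported here. Alternatives were another pseudocount, 2 filters, 3 scalings, no variance trend, library weights, the replicate number as a block and each library left out.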

Additional observations from a re-analysis of the deposited data

Results flagged for a closer look

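Among the 9 NMD factors, Atf4 and the related genes whose fold changes are given, 56 groups of 4 libraries were checked for a library far from the other 3, and 3 stood out. For genes fixed beforehand, chance flags about 1 in 20 groups, or 2.8 here. Some of these genes were named by their p or after their values were seen, so 2.8 is only a rough guide. None of the 3 flagged groups belonged to the 9 NMD factors. The low Upf3b value of control replicate 3 (17.2 TPM, beside 25.5 to 28.7 TPM in the other controls) was thus not flagged. In Magohb, a core gene of the exon junction complex, the value of control replicate 2 (23.4 TPM) lay above the remaining controls (20.6 to 20.9 TPM). In Eif4a3, the helicase of that complex, the value of mutant replicate 1 (179 TPM) lay above the remaining mutants (163 to 165 TPM). In Gas5, a snoRNA host gene, the value of the same mutant replicate 1 (135 TPM) lay below the remaining mutants (242 to 259.6 TPM).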

How the results depend on the processing

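In all 17 alternatives 0 of the 9 NMD factors passed the adjusted or the unadjusted threshold in limma, and the lowest adjusted p of any was 0.831 (Upf2, TPM rescaled without mitochondrial and haemoglobin genes). Among these factors, signs turned only when a library was left out. Over these 8 fits the log2 fold change ran from -0.098 to 0.14 for Upf3b and from -0.051 to 0.021 for Smg1. It ran from -0.038 to 0.017 for Smg5 and from -0.075 to 0.029 for Smg9. Outside the 9 factors, the host genes Gas5 and Zfas1 ran from -0.27 to 0.051 and from -0.082 to 0.0057. The median over the 9 ranged from -0.051 to 0.029 in the same fits and stayed below 0 in the other 9 alternatives.

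The Atf4 difference kept its size but not its call. Its log2 fold change was 0.57 with no filter, with no variance trend and with the replicate block (adjusted p of 0.354, 0.215 and 0.249), 0.55 after quantile normalization (0.0611) and 0.56 after the rescaling (0.0548). In these 5 settings the described NMD substrates had 0 genes past the threshold. Leaving out 1 library gave 0.51 to 0.62 for Atf4 and 0 to 1 called substrates. The number of all genes called, 6, became 0 with no filter, no variance trend or the replicate block, and 0 to 3 with 1 library left out. The cause was not tested. Same-numbered samples did not deviate together over all tested genes (correlations from -0.082 to 0.035). These values cannot show whether any samples share a litter, which the labels do not give. None of the 9 factors was called with or without the block. TPM holds no depth, so counting error could not be separated from the spread between libraries.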
